A study of Mus musculus with 12 samples.

Results

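Inhibitory receptors are surface proteins that restrain an activated T cell, and 8 genes of this group (*Pdcd1*, *Lag3*, *Havcr2*, *Tigit*, *Cd160*, *Btla*, *Cd96* and *Cd200*) are described here together with *Tox*, which encodes a nuclear factor often found in the same cells. The genes were picked by their symbols, and all 9 were found among the 45777 genes of the deposited table and passed the filter on low counts that left 23585 genes for testing. *Cd200* differs from the others in that it encodes a surface ligand, which binds an inhibitory receptor (CD200R) on another cell. The libraries were made from splenic CD4+ T cells of wild type mice, cultured for 3 days with 0.5 ug/mL anti-CD3, an antibody against a chain of the T-cell receptor complex that activates the cells. Besides the group with anti-CD3 alone, 1 group also received *Lactobacillus acidophilus*, a lactic acid bacterium used as a probiotic, 1 received FK506 (tacrolimus), a calcineurin inhibitor used against transplant rejection, and 1 received the combination, with 3 libraries in each of the 4 groups. All 12 libraries thus carry the anti-CD3 stimulus, and no unstimulated cells are among them. The labels give Balb/c mice aged 7 weeks, whereas the methods of the study name B6 mice for these cells, and the labels give no dose of *L. acidophilus* or FK506. Nothing in the labels states that the 3 libraries of a group came from separate mice or cultures, so the p-values measure the spread between these libraries, which may be technical.

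After activation, a T cell puts inhibitory receptors on its surface, where they meet ligands on antigen-presenting cells, tissue cells or other T cells and dampen the signals of the T-cell receptor and of CD28. PD1, encoded by *Pdcd1*, recruits phosphatases, LAG3 binds MHC class II, and TIM3, encoded by *Havcr2*, binds several ligands, galectin-9 among them. TIGIT and CD96 compete with the activating receptor CD226 for the poliovirus receptor (*Pvr*), and BTLA and CD160 bind the herpesvirus entry mediator (*Tnfrsf14*). FK506 blocks calcineurin, the phosphatase that lets NFAT factors enter the nucleus, and several of these genes are known NFAT targets. Lasting expression of many of these receptors with TOX is known from exhausted T cells, but each of them is also made by normally activated T cells, and TIGIT by regulatory T (Treg) cells.

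The libraries held between 45416397 and 64658165 counts each, and the 4 libraries of replicate 1 were the deepest. The CD4+ label was checked against 7 CD4+ T-cell markers, whose summed FPKM (fragments per kilobase of transcript, scaled to the depth of the library) was 1239 to 2302 per library, with *Cd4* and *Cd3e* above 100 in every library, against a summed FPKM of 3.06 to 20.1 for 7 markers of CD8+ T and NK cells. Of the CD4+ T-cell markers, the combination raised 3 and lowered 1 against anti-CD3 alone, and raised 3 and lowered 0 against FK506. Their sums were 1239 to 1921 (anti-CD3 alone), 1464 to 1558 (*L. acidophilus*), 1300 to 1456 (FK506) and 1840 to 2302 (combination). Of 5 T follicular helper markers, the combination raised 3 and lowered 1 and *L. acidophilus* raised 1 against anti-CD3 alone. The part of these T cells in the results was not tested. Markers of other cells also moved with the groups. The summed FPKM of 12 B-cell markers was 43.6 to 71.2 (anti-CD3 alone), 29.2 to 40.5 (*L. acidophilus*), 245 to 493 (FK506) and 157 to 180 (combination), and for 10 myeloid markers these ranges were 77.0 to 138, 72.2 to 108, 62.4 to 119 and 139 to 270. Most of the myeloid sum was *Cst3* (cystatin C), a gene that many cell types make, and the other 9 markers summed to 2.16 to 3.56 (anti-CD3 alone), 3.43 to 7.07 (*L. acidophilus*), 5.15 to 17.2 (FK506) and 45.02 to 71.8 (combination). In bulk RNA, fewer cells of a type and less RNA per cell cannot be told apart. The anti-CD3 library of replicate 2 differed most from the other libraries of its group, and results that rest on it are given with and without it.

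**Figure D1:**
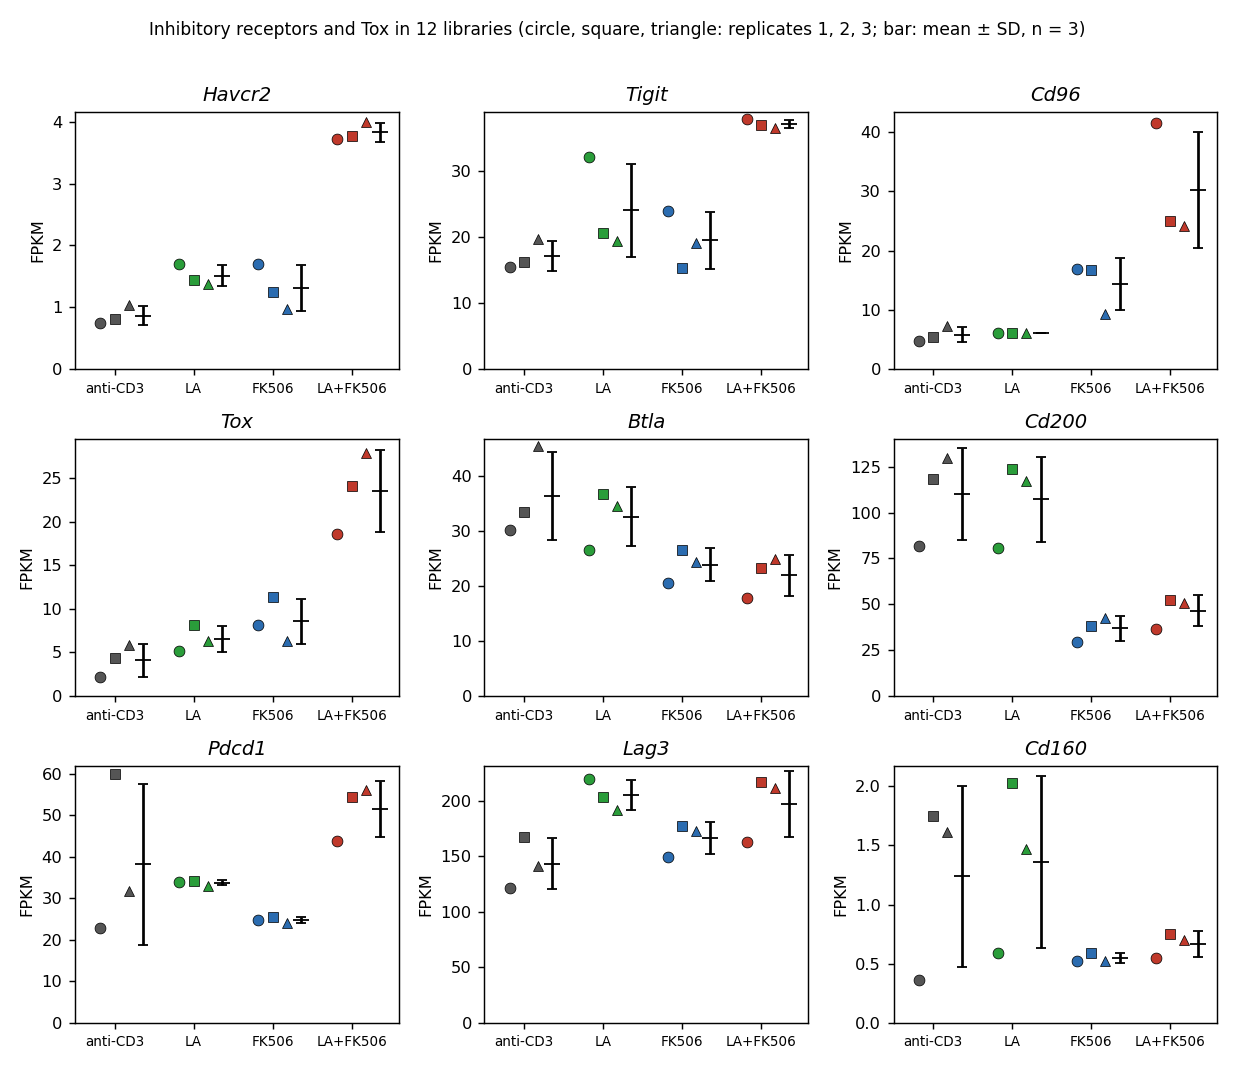
FPKM of the 9 genes (y axis, linear and from 0) in the 4 groups (x axis), with 1 symbol per library and the mean ± SD of 3 libraries as a bar. *Havcr2*, *Tigit*, *Cd96* and *Tox* are highest in the 3 combination libraries, *Btla* and *Cd200* are lower with FK506 and the combination, and 1 anti-CD3 library stands at 59.9 for *Pdcd1*.

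The 9 genes covered a wide range of levels. By FPKM averaged over the 12 libraries the order was *Lag3* (178), *Cd200* (75.2), *Pdcd1* (37.0), *Btla* (28.8), *Tigit* (24.5), *Cd96* (14.1), *Tox* (10.7), *Havcr2* (1.88) and *Cd160* (0.953). The counts behind these values reached from 67 for *Cd160* to 32240 for *Lag3* in a single library. Counts were tested with edgeR's quasi-likelihood test, which was fitted to all tested genes and all 12 libraries, and a gene was taken as changed at a Benjamini-Hochberg adjusted p under 0.05.

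In the combination, 6 of the 9 genes differed from anti-CD3 alone, where 43.3% of all tested genes did. *Havcr2*, *Tigit*, *Cd96* and *Tox* were higher (21.5% of all tested genes were higher) and *Btla* and *Cd200* were lower (21.8% were lower), while *Pdcd1*, *Lag3* and *Cd160* did not pass the test. The median log2 fold change was 0.25 over the 9 genes and 0.02 over all genes tested. FK506 alone changed 4 of the 9 against anti-CD3 alone, beside 19.0% of all tested genes. *Cd96* and *Tox* were higher (10.2% of all tested genes) and *Btla* and *Cd200* were lower (8.81%). With *L. acidophilus* alone, 0 of the 9 passed in edgeR, beside 0.229% of all tested genes, 4 had an unadjusted p under 0.05 (*Lag3*, *Havcr2*, *Tigit* and *Tox*, all higher), DESeq2 called 1 (*Havcr2*) and limma on log2(FPKM + 1) called 0. The 0.229% is the share in edgeR, and those in DESeq2, in limma and at the unadjusted p are not given here. The comparisons of the combination, FK506 and *L. acidophilus* with anti-CD3 alone share the anti-CD3 libraries.

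**Figure D2:**
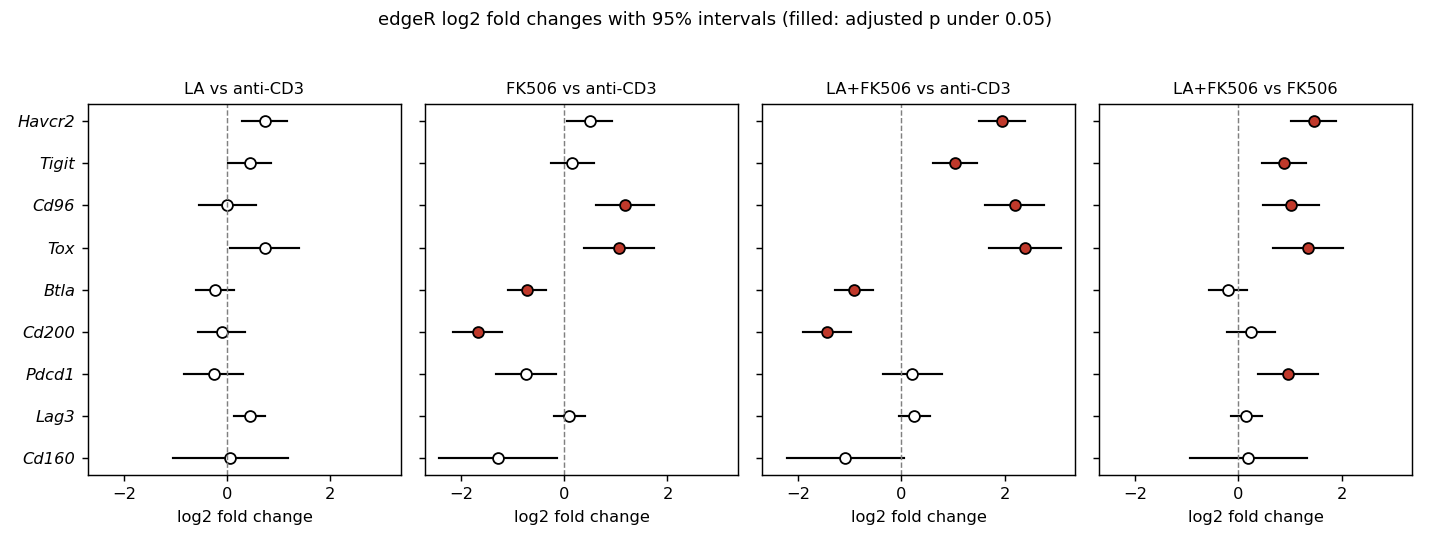
Log2 fold changes of the 9 genes from edgeR (x axis) with 95% confidence intervals in 4 comparisons, 1 panel each, and filled points where the adjusted p is under 0.05. Points for *Havcr2*, *Tigit*, *Cd96* and *Tox* lie above 0 in both panels of the combination, the one against anti-CD3 alone and the one against FK506.

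Between the combination and FK506, which differ by the added *L. acidophilus*, 5 of the 9 genes were higher in the combination and 0 lower, beside 19.1% of all tested genes changed and 8.18% higher. These were *Pdcd1*, *Havcr2*, *Tigit*, *Cd96* and *Tox*. Between the combination and *L. acidophilus*, which differ by the added FK506, 6 of the 9 passed, beside 33.6% of all tested genes, with *Havcr2*, *Tigit*, *Cd96* and *Tox* higher (16.6% of all tested genes) and *Btla* and *Cd200* lower (17.0%) in the combination. FK506 and *L. acidophilus* alone differed in 2 of the 9, *Cd96* (higher with FK506) and *Cd200* (lower with FK506), beside 7.52% of all tested genes. A combination effect that differed from the sum of both single effects on the log2 scale was tested as an interaction, which 0 of the 9 passed in edgeR, beside 4.35% of all tested genes. At an unadjusted p under 0.05 there were 3 (*Pdcd1*, *Havcr2* and *Cd96*), DESeq2 called 2 (*Pdcd1* and *Cd96*) and limma on log2(FPKM + 1) called 0. The shares of all tested genes called in these ways are not given here. In simulated data, edgeR recovered 24 of 100 2-fold departures from the sum.

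*Havcr2* (gene ID 171285, chr11:46454931-46481255) encodes TIM3. Its FPKM was 0.748, 0.805 and 1.04 with anti-CD3 alone and 1.70, 1.45 and 1.38 with *L. acidophilus*. With FK506 it was 1.71, 1.25 and 0.976, and with the combination 3.72, 3.77 and 4.00. Every combination library lay above every other library, and the other 3 groups lay close to each other, with FK506 overlapping both of its neighbours. On the counts, the log2 fold change of the combination was 1.95 ± 0.20 (standard error) against anti-CD3 alone, a 3.85-fold difference (adjusted p = 2.72e-05, edgeR). Against FK506 it was 1.46 ± 0.20 (adjusted p = 0.000790, edgeR), and against *L. acidophilus* 1.22 ± 0.20 (adjusted p = 0.000737, edgeR). With any single library left out, these 3 adjusted p stayed between 2.13e-05 and 0.00535 in edgeR. The rise with *L. acidophilus* alone, 0.73 on the log2 scale, did not pass in edgeR (adjusted p = 0.132), and passed in DESeq2 at 0.72 (adjusted p = 0.0168, with 0.0168 to 0.316 over all alternatives of this comparison). FK506 alone gave 0.49 (adjusted p = 0.111, edgeR), which passed with the FK506 library of replicate 3 left out (0.69, adjusted p = 0.0367, the lowest of 0.0367 to 0.506 over the alternatives) and was 0.27 without that of replicate 1 (adjusted p = 0.386, edgeR). *Havcr2* is also made by macrophages and dendritic cells, and the combination raised 6 of the 8 myeloid markers tested over anti-CD3 alone. *Lyz2*, a lysozyme of macrophages and neutrophils, had an FPKM of 30.8, 14.5 and 16.1 in the combination and at most 0.0327 with anti-CD3 alone. *Csf1r*, *Fcgr1*, *S100a8* and *S100a9* were at 0 in all 3 anti-CD3 libraries, and *S100a8* in all 3 combination libraries. The part of myeloid RNA in the *Havcr2* result was not tested.

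*Tox* (gene ID 252838, chr4:6686353-6991557) encodes an HMG-box factor that is needed for the development of CD4+ T cells in the thymus and for the exhausted state of T cells. With anti-CD3 alone its FPKM was 2.13, 4.31 and 5.87, and with *L. acidophilus* 5.19, 8.09 and 6.33. FK506 gave 8.12, 11.4 and 6.25, and the combination 18.6, 24.1 and 27.9. The 3 combination libraries stood clear of all others, while the other groups overlapped in part. The difference between the combination and anti-CD3 alone, 2.39 ± 0.32 on the log2 scale or 5.25-fold, was the largest of the 9 genes in that comparison (adjusted p = 0.000127, edgeR). Against FK506 it was 1.34 ± 0.31 (adjusted p = 0.0115, edgeR), which did not pass without the FK506 library of replicate 3 (1.18, adjusted p = 0.0630, edgeR, with 0.000149 to 0.0630 over the alternatives). Against *L. acidophilus* it was 1.67 ± 0.31 (adjusted p = 0.00177, edgeR). FK506 alone raised *Tox* by 1.05 ± 0.31 over anti-CD3 alone (adjusted p = 0.0345, edgeR). That call was lost when the anti-CD3 library of replicate 1 (0.75, adjusted p = 0.0640) or 2 (1.08, adjusted p = 0.0824) or the FK506 library of replicate 1 (1.12, adjusted p = 0.0617) or 2 (0.81, adjusted p = 0.145) was left out in edgeR, and with limma on log2(FPKM + 1) it was 0.95 (adjusted p = 0.0562, with 0.00484 to 0.145 over the alternatives). The rise with *L. acidophilus* alone, 0.73, did not pass (adjusted p = 0.306, edgeR).

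*Tigit*, *Btla*, *Cd200* and *Cd96* lie on chromosome 16 within 2.49 Mb, and they did not move in 1 direction. The sequences around their transcription starts are shown because these 4 neighbours split into 2 that were higher and 2 that were lower in the combination. Each window holds 250 bases before and 50 bases from the RefSeq start on (GRCm38.p6, the build of the submitters' processing notes), written 5′ to 3′ on the strand of the gene, with capitals for GGAAA or its reverse complement TTTCC, the core letters of sites that NFAT factors bind. The windows are chr16:43664135-43664434 (minus strand) for *Tigit*, chr16:46120199-46120498 (minus strand) for *Cd96*, chr16:45224087-45224386 (plus strand) for *Btla* and chr16:45409004-45409303 (minus strand) for *Cd200*. The windows of *Tigit* and *Btla* lie wholly inside the annotated genes, whose positions are given below. Their starts are thus internal ones, from which the positions are counted, and the sequence before the outer 5′ ends of these genes was not searched.
Tigit: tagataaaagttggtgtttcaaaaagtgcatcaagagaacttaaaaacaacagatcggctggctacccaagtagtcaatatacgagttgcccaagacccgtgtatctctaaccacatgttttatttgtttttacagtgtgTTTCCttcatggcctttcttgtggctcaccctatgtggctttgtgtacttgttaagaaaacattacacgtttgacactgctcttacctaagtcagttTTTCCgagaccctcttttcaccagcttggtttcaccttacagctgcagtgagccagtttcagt
Cd96: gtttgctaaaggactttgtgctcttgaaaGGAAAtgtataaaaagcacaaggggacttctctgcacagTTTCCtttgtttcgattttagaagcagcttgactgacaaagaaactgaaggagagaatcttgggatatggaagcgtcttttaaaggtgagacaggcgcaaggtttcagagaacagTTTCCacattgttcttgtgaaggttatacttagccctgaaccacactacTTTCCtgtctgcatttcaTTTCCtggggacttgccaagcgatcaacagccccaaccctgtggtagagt
Btla: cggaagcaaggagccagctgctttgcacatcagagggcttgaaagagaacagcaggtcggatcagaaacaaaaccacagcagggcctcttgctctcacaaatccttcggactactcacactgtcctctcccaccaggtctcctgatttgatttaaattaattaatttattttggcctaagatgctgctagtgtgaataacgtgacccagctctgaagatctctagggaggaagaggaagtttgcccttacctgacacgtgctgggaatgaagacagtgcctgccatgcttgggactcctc
Cd200: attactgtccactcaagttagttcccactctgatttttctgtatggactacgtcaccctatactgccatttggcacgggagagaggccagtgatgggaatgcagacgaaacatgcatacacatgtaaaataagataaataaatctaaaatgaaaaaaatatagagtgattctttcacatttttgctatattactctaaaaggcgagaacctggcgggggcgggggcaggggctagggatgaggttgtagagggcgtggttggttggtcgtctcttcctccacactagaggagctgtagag
The *Cd96* window holds GGAAA 5 times on either strand, at -221, -182, -67, -18 and 1 from the start, and the *Tigit* window 2 times, at -110 and -13. The *Btla* and *Cd200* windows hold it 0 times. Among 32851 windows of the same length in the table, 61.3% hold it at least 1 time, with a mean of 1.01 matches. Of the other genes, windows were at hand for *Pdcd1*, *Havcr2* and *Cd160*. *Pdcd1* has 2 matches, at -28 and -23, *Havcr2* has 0, and *Cd160* has 0 in 1 of its windows and 1 in the other. TGANTCA, the letters of AP-1 sites, was searched on both strands as well and stands in the *Havcr2* window, at -200, and in 7.81% of all windows. GGAAA and TGANTCA matches did not overlap. A match is no proof of a bound site, and no match says only that these letters are not in the window.

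*Tigit* (gene ID 100043314, chr16:43626137-43665125) encodes a receptor for PVR on activated, memory and regulatory T cells. Its FPKM was 15.5, 16.3 and 19.7 with anti-CD3 alone, 32.1, 20.7 and 19.4 with *L. acidophilus*, 24.0, 15.4 and 19.2 with FK506 and 37.9, 37.1 and 36.6 with the combination. The combination libraries lay above all others and within a narrow range, whereas the other 3 groups overlapped, with the *L. acidophilus* library of replicate 1 nearest to the combination. The rise with *L. acidophilus* alone was 0.44 on the log2 scale and did not pass (adjusted p = 0.319, edgeR). Without its library of replicate 1 this rise was only 0.18 (adjusted p = 0.675, edgeR). The combination raised *Tigit* 2.06-fold over anti-CD3 alone (log2 fold change 1.04 ± 0.19, adjusted p = 0.00111, edgeR), and 0.89 ± 0.19 higher than with FK506 on the log2 scale (adjusted p = 0.00856, edgeR). These calls held with any single library left out, at an adjusted p of 0.000270 to 0.0448 in edgeR. The difference from *L. acidophilus*, 0.61 ± 0.19 (adjusted p = 0.0298, edgeR), was less secure. It did not pass without the *L. acidophilus* library of replicate 2 (0.47, adjusted p = 0.118) or 3 (0.52, adjusted p = 0.110), or without the combination library of replicate 1 (0.58, adjusted p = 0.0707), 2 (0.63, adjusted p = 0.0609) or 3 (0.62, adjusted p = 0.0625), all in edgeR, and its adjusted p ranged from 0.00168 to 0.118 over the alternatives. Of the 6 Treg markers, the combination raised 4 and lowered 1 (*Il2ra*) against anti-CD3 alone. Their summed FPKM was 510 to 662 (anti-CD3 alone), 441 to 640 (*L. acidophilus*), 422 to 621 (FK506) and 572 to 609 (combination), and none of them was at 0 in any group. With anti-CD3 alone most of this sum was *Il2ra*, the marker that fell, at 414 to 548 with anti-CD3 alone and 215 to 262 in the combination. The other 5 markers summed to 95.6 to 114 (anti-CD3 alone), 77.4 to 174 (*L. acidophilus*), 106 to 227 (FK506) and 336 to 357 (combination), of which *Ctla4*, which did not pass (0.77, adjusted p = 0.0639, edgeR), made up 88.5 to 106 with anti-CD3 alone and 186 to 209 in the combination. *Foxp3*, the lineage factor of Treg cells, had an FPKM of 4.45 to 6.20 (anti-CD3 alone), 7.53 to 24.7 (*L. acidophilus*), 21.9 to 44.8 (FK506) and 95.7 to 108 (combination). The part of Treg cells in the *Tigit* result was not tested.

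*Cd96* (gene ID 84544, chr16:46035652-46120248) encodes the second PVR receptor of the group, which is found on T and NK cells. With anti-CD3 alone its FPKM was 4.80, 5.44 and 7.19 and with *L. acidophilus* 6.16, 6.09 and 6.09, so that these 2 groups could not be told apart (log2 fold change -0.0020 ± 0.25, adjusted p = 1, edgeR). FK506 gave 16.8, 16.8 and 9.21 and the combination 41.6, 25.1 and 24.1. No FK506 library overlapped with anti-CD3 alone or *L. acidophilus*, and no combination library overlapped with FK506. Against anti-CD3 alone, *Cd96* rose by 1.18 ± 0.25 with FK506 (adjusted p = 0.00801, edgeR) and by 2.19 ± 0.26 or 4.57-fold with the combination (adjusted p = 5.82e-05, edgeR). Against *L. acidophilus*, the differences were 1.18 ± 0.25 with FK506 (adjusted p = 0.0150, edgeR) and 2.196 ± 0.26 with the combination (adjusted p = 0.000122, edgeR). The former was lost without the *L. acidophilus* library of replicate 2 (1.18, adjusted p = 0.0649) or 3 (1.18, adjusted p = 0.0638) or the FK506 library of replicate 1 (1.06, adjusted p = 0.0584) or 2 (1.05, adjusted p = 0.0692) in edgeR, with 0.000113 to 0.0692 over the alternatives. The combination exceeded FK506 by 1.02 ± 0.25 (adjusted p = 0.0159, edgeR), which did not pass without the FK506 library of replicate 3 (0.79, adjusted p = 0.0634, edgeR) or the combination library of replicate 1 (0.69, adjusted p = 0.0548, edgeR), with 0.000493 to 0.0634 over the alternatives. *Cd96* is also a gene of CD8+ T and NK cells. Of the 6 markers of these cells that were tested, 4 were higher with FK506 and 3 with the combination than with anti-CD3 alone, and the summed FPKM of the list was 3.06 to 5.77 (anti-CD3 alone), 4.30 to 7.67 (*L. acidophilus*), 7.67 to 16.2 (FK506) and 10.6 to 20.1 (combination). Much of this rise was *Eomes*, a factor of CD8+ T and NK cells that also stands in the list of exhaustion-linked factors, at 0.444 to 0.773 with anti-CD3 alone and 5.95 to 13.1 in the combination. Without it the sums were 2.29 to 5.14, 3.47 to 6.37, 4.77 to 10.0 and 4.69 to 7.02 in the same order. *Cd8b1*, which had the highest mean of the list over all 12 libraries, was at 2.102 to 4.88 with anti-CD3 alone and 4.14 to 4.48 in the combination. *Klrb1c* and *Klre1* were at 0 in all anti-CD3 libraries, *Ncr1* in all *L. acidophilus* libraries and *Klre1* in all combination libraries. *Cd8a* reached an FPKM of 2.18 in 1 FK506 library and at most 0.534 in the combination. The part of these cells in the *Cd96* result was not tested.

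*Btla* (gene ID 208154, chr16:45223705-45252895) encodes an inhibitory receptor of T and B cells. Its FPKM was 30.3, 33.5 and 45.5 with anti-CD3 alone and 26.6, 36.8 and 34.7 with *L. acidophilus*. With FK506 it was 20.6, 26.6 and 24.4, and with the combination 17.8, 23.4 and 24.9. The FK506 and combination libraries lay below all anti-CD3 libraries and overlapped each other, and anti-CD3 alone overlapped *L. acidophilus*. The log2 fold change against anti-CD3 alone was -0.92 ± 0.17 with the combination (adjusted p = 0.000972, edgeR) and -0.72 ± 0.17 with FK506 (adjusted p = 0.0118, edgeR). Without the FK506 library of replicate 1 the latter was -0.62 and did not pass (adjusted p = 0.0514, edgeR), and it did not pass with limma on log2(FPKM + 1) either (-0.57, adjusted p = 0.0590, with 0.000926 to 0.162 over the alternatives). The combination was also lower than *L. acidophilus* (-0.69 ± 0.17, adjusted p = 0.00792, edgeR) and did not differ detectably from FK506 (-0.21, 95% interval -0.57 to 0.16, adjusted p = 0.437, edgeR). With limma on log2(TPM + 1), *Btla* was -0.54 in the combination against anti-CD3 alone (adjusted p = 0.0723, the highest of 1.09e-05 to 0.0723 over the alternatives) and -0.44 against *L. acidophilus* (adjusted p = 0.155, the highest of 0.000437 to 0.155). FK506 against *L. acidophilus* gave -0.48 ± 0.17, which did not pass (adjusted p = 0.112, edgeR). It passed in edgeR with the replicate number as a block (-0.48, adjusted p = 0.0112) and within replicates 2 and 3 alone (-0.51, adjusted p = 0.0466). Without the *L. acidophilus* library of replicate 1 it passed as well (-0.61, adjusted p = 0.0492, edgeR), with 0.0112 to 0.382 over the alternatives.

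*Cd200* (gene ID 17470, chr16:45382111-45409060) lies on the other strand beside *Btla*, with its near end 129 kb beyond the end of *Btla*. Its FPKM was 81.7, 119 and 130 with anti-CD3 alone, 80.7, 124 and 117 with *L. acidophilus*, 29.6, 38.3 and 42.6 with FK506 and 36.7, 52.1 and 50.9 with the combination. All 6 libraries that received FK506 lay below all 6 that did not. The log2 fold change against anti-CD3 alone was -1.68 ± 0.22 with FK506 (adjusted p = 0.000490, edgeR) and -1.44 ± 0.21 with the combination (adjusted p = 0.000241, edgeR), so that the level with FK506 was 3.21-fold lower. The combination and FK506 did not differ detectably (0.24, 95% interval -0.22 to 0.70, adjusted p = 0.473, edgeR), nor did *L. acidophilus* and anti-CD3 alone (-0.11, 95% interval -0.57 to 0.35, adjusted p = 0.881, edgeR). Against *L. acidophilus*, *Cd200* was lower with FK506 (-1.57 ± 0.22, adjusted p = 0.00124, edgeR) and with the combination (-1.33 ± 0.21, adjusted p = 0.000665, edgeR). All 4 calls held with any single library left out, at an adjusted p of at most 0.00791 in edgeR. *Btla* and *Cd200* are also genes of B cells, and 11 of the 12 B-cell markers were higher with FK506 and 8 of 12 with the combination than with anti-CD3 alone, opposite in direction to *Btla* and *Cd200*. No B-cell marker was at 0 in all libraries of a group. *Ms4a1* (CD20) had an FPKM of 2.30 to 2.88 with anti-CD3 alone, 26.1 to 61.2 with FK506 and 19.6 to 25.9 with the combination. The part of B cells in both results was not tested.

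**Figure D3:**
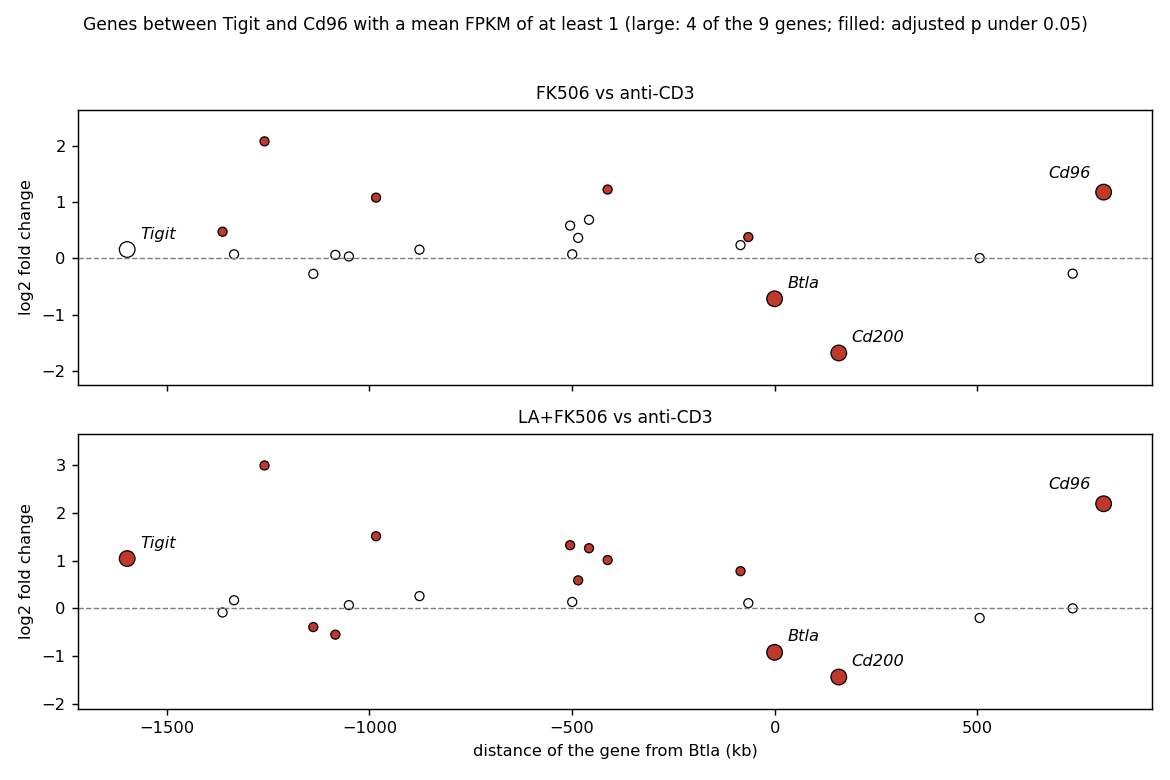
Log2 fold changes (y axis) of the 21 genes with a mean FPKM of at least 1 between *Tigit* and *Cd96*, by their distance from *Btla* in kb (x axis), for FK506 (top) and the combination (bottom) against anti-CD3 alone. *Btla* and *Cd200*, side by side, are the lowest points in both panels, and *Cd96* at the right end is among the highest.

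Between *Tigit* and *Cd96*, RefSeq lists 61 genes, of which 39 were tested and 21 had a mean FPKM of at least 1. Of the 17 of these that are not among the 9 genes, the combination raised 7 and lowered 2 against anti-CD3 alone, where 21.5% and 21.8% of all tested genes were higher and lower. With FK506, 5 of the 17 were higher and 0 lower in edgeR, beside 10.2% and 8.81% of all tested genes, and a count of 0 among so few genes is near the latter share. The 17 genes have a mean FPKM of at least 1, whereas the shares for both comparisons are over all 23585 tested genes. Of those, 12221 have such a mean, and the shares among them are not given here. The gap between the end of *Btla* and the near end of *Cd200* holds 2 other annotated genes, both of long non-coding RNA and both with at most 10 counts in any library. Of these, *Gm30636* was lower in the combination (adjusted p = 0.0398, edgeR), with 6, 5 and 10 counts with anti-CD3 alone and 0 in all 3 combination libraries, and *Gm30760* did not pass (adjusted p = 0.673, edgeR). *Cd200r1*, the receptor of CD200, lies in the same stretch, 458 kb before the start of *Btla*.

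*Pdcd1* (gene ID 18566, chr1:94038305-94052553) encodes PD1. Its FPKM was 22.8, 59.9 and 31.7 with anti-CD3 alone and 34.0, 34.2 and 33.0 with *L. acidophilus*. With FK506 it was 24.7, 25.5 and 24.1, and with the combination 43.7, 54.4 and 56.2. The anti-CD3 libraries spread widely, and the one of replicate 2 was the highest of all 12. Every combination library lay above every FK506 and every *L. acidophilus* library. The combination exceeded FK506 by 0.96 ± 0.27 on the log2 scale, or 1.94-fold (adjusted p = 0.0271, edgeR). This call was lost without the FK506 library of replicate 1 (0.95, adjusted p = 0.0722), 2 (0.97, adjusted p = 0.0637) or 3 (0.95, adjusted p = 0.0918) or the combination library of replicate 2 (0.92, adjusted p = 0.0760) or 3 (0.91, adjusted p = 0.0782), while the difference itself stayed between 0.91 and 1.05 (edgeR), and the adjusted p ranged from 0.000297 to 0.0918 over the alternatives. Against anti-CD3 alone the combination gave 0.21 ± 0.27 (adjusted p = 0.550, edgeR). Without the anti-CD3 library of replicate 2 this became 0.74 (adjusted p = 0.000864, edgeR), and without that of replicate 1 it became -0.04 (adjusted p = 0.902, edgeR) and without that of replicate 3 it was 0.068 (adjusted p = 0.881, edgeR), so that 1 library turned its direction and another decided whether it passed. It also passed with limma on log2(TPM + 1), at 0.70 (adjusted p = 0.0396), a scaling that moved the median of genes with a mean FPKM of at least 1 by 0.36, and its adjusted p was 0.000864 to 0.929 over the alternatives. FK506 against anti-CD3 alone was -0.75 ± 0.27 (adjusted p = 0.0732, edgeR). It passed without the anti-CD3 library of replicate 1 (-1.004, adjusted p = 0.0122, edgeR) and with DESeq2 (-0.74, adjusted p = 0.0309), but was only -0.22 without that of replicate 2 (adjusted p = 0.252, edgeR), and the adjusted p ranged from 0.0122 to 0.300 over the alternatives. The interaction, the part of the combination effect beyond both single effects added on the log2 scale, was 1.22 ± 0.38 (adjusted p = 0.0922, edgeR). DESeq2 gave 1.27 (adjusted p = 0.0143), and without the anti-CD3 library of replicate 1 or 2 edgeR gave 1.48 (adjusted p = 0.0274) or 0.70 (adjusted p = 0.0299), with 0.0143 to 0.194 over all alternatives.

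The difference of *Pdcd1* between the combination and *L. acidophilus* was 0.48 ± 0.27 (adjusted p = 0.191, edgeR) and that between FK506 and *L. acidophilus* was -0.48 ± 0.27 (adjusted p = 0.332, edgeR). Without the anti-CD3 library of replicate 2, which enters neither difference but the shared estimate of the spread, both passed in edgeR at 0.48 (adjusted p = 0.00500) and -0.48 (adjusted p = 0.0190). In edgeR fits of the 6 libraries compared, they passed as well at 0.49 (adjusted p = 0.00688) and -0.48 (adjusted p = 0.00880). Over all alternatives these adjusted p ranged from 0.00500 to 0.337 and from 0.00880 to 0.516.

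*Lag3* (gene ID 16768, chr6:124904359-124912434) encodes a receptor related to CD4 and was the most abundant of the 9 genes in every group. Its FPKM was 122, 167 and 141 with anti-CD3 alone, 220, 204 and 192 with *L. acidophilus*, 150, 177 and 173 with FK506 and 163, 217 and 211 with the combination. The *L. acidophilus* libraries lay above the anti-CD3 libraries, and all other pairs of groups overlapped except FK506 and *L. acidophilus*. The difference between *L. acidophilus* and anti-CD3 alone was 0.43 ± 0.14 on the log2 scale, which did not pass (adjusted p = 0.188, edgeR). That between the combination and anti-CD3 alone was 0.25 ± 0.14 (95% interval -0.06 to 0.56, adjusted p = 0.169, edgeR), and it passed without the anti-CD3 library of replicate 2 (0.40, adjusted p = 0.0279, edgeR) and was 0.16 without that of replicate 1 (adjusted p = 0.418, edgeR). It also passed where the scaling between libraries was changed, at 0.47 without TMM factors (adjusted p = 0.0169, edgeR), a setting that moved the median of the 12221 genes with a mean FPKM of at least 1 by 0.21, and at 0.46 with limma on log2(FPKM + 1) (adjusted p = 0.0248), which moved it by 0.19. Relative to these shifts the change of *Lag3* was nearly the same in all 3 fits, and over the alternatives its adjusted p ranged from 0.00756 to 0.418.

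*Cd160* (gene ID 54215, chr3:96798763-96829351) encodes a receptor of the immunoglobulin family best known from NK and CD8+ T cells. It was the least abundant of the 9 genes, at an FPKM of 0.358, 1.75 and 1.61 with anti-CD3 alone, 0.587, 2.03 and 1.47 with *L. acidophilus*, 0.525, 0.593 and 0.520 with FK506 and 0.545, 0.751 and 0.704 with the combination. In the groups without FK506, the library of replicate 1 was low and those of replicates 2 and 3 were higher than any library with FK506. None of the differences passed in the fit of all 12 libraries, with -1.09 ± 0.52 for the combination (adjusted p = 0.111, edgeR) and -1.28 ± 0.52 for FK506 (adjusted p = 0.111, edgeR) against anti-CD3 alone. Without the anti-CD3 library of replicate 1 they were -1.52 (adjusted p = 0.00989) and -1.72 (adjusted p = 0.0149), without that of replicate 2 the combination was at only -0.71 (adjusted p = 0.342), and within replicates 2 and 3 alone they were -1.41 (adjusted p = 0.00214) and -1.68 (adjusted p = 0.00362), all in edgeR. Against *L. acidophilus*, the combination gave -1.15 ± 0.52 (adjusted p = 0.110, edgeR), which passed without the anti-CD3 library of replicate 1 (-1.15, adjusted p = 0.0292) or the *L. acidophilus* library of replicate 1 (-1.52, adjusted p = 0.0355) and was -0.75 without the *L. acidophilus* library of replicate 2 (adjusted p = 0.359). FK506 gave -1.35 ± 0.52 against *L. acidophilus* (adjusted p = 0.157, edgeR), which passed without the anti-CD3 library of replicate 1 (-1.35, adjusted p = 0.0451). The libraries of replicate 1 were also the deepest, and the part of depth in these values was not tested. Over the alternatives, the adjusted p of *Cd160* ranged from 0.00214 to 0.493 for the combination and from 0.00362 to 0.365 for FK506 against anti-CD3 alone, and from 0.00315 to 0.359 and from 0.00473 to 0.456 against *L. acidophilus*. In the same order, the log2 fold changes ranged from -1.52 to -0.36, -1.72 to -0.47, -1.52 to -0.45 and -1.71 to -0.56.

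Partners of these receptors were measured in the same bulk libraries. *Cd274*, *Tnfrsf14* and *Cd200r1* are also made by B or myeloid cells, and the combination raised 8 of the 12 B-cell and 6 of the 8 myeloid markers tested over anti-CD3 alone, while the part of those cells in the values of the partners was not tested. The combination raised *Cd274* (PDL1), a ligand of PD1, over anti-CD3 alone (log2 fold change 0.88, adjusted p = 0.000235, edgeR), at an FPKM of 56.6 to 72.0 against 25.8 to 37.8, and lowered *Pdcd1lg2* (PDL2), the other ligand of PD1 (-1.16, adjusted p = 0.000224, edgeR), at 10.6 to 17.6 against 26.6 to 30.1. FK506 alone moved them in the same directions, by 0.53 (adjusted p = 0.0145, edgeR) and -0.76 (adjusted p = 0.00945, edgeR). *Tnfrsf14*, the partner of BTLA and CD160, rose from 7.30 to 13.1 with anti-CD3 alone to 45.7 to 54.7 with the combination (2.16, adjusted p = 4.35e-05, edgeR) and to 21.9 to 43.0 with FK506 (1.51, adjusted p = 0.00147, edgeR). *Tnfsf14* (LIGHT), an activating ligand of the same partner, fell from 11.8 to 21.3 with anti-CD3 alone to 2.49 to 2.77 with the combination (-2.80, adjusted p = 4.80e-05, edgeR) and 2.40 to 3.08 with FK506 (-2.66, adjusted p = 0.000339, edgeR). Thus within the BTLA pathway the RNA of the receptor and of the activating ligand *Tnfsf14* was lower and that of the shared partner higher in the libraries with FK506 than with anti-CD3 alone. *Cd200r1*, the receptor of CD200, was higher in the combination (1.26, adjusted p = 0.0110, edgeR), where *Cd200* was lower. *Pvr*, the ligand of TIGIT and CD96, did not differ detectably (0.08, adjusted p = 0.752, edgeR), and *Cd226*, their activating competitor, was higher (0.75, adjusted p = 0.0428, edgeR). Of the ligands described for TIM3, *Lgals9* (galectin-9) was at -0.50 and did not pass (adjusted p = 0.0567, edgeR), *Ceacam1* was higher (1.22, adjusted p = 0.0111, edgeR) and *Hmgb1* lower (-0.36, adjusted p = 0.0123, edgeR).

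**Figure D4:**
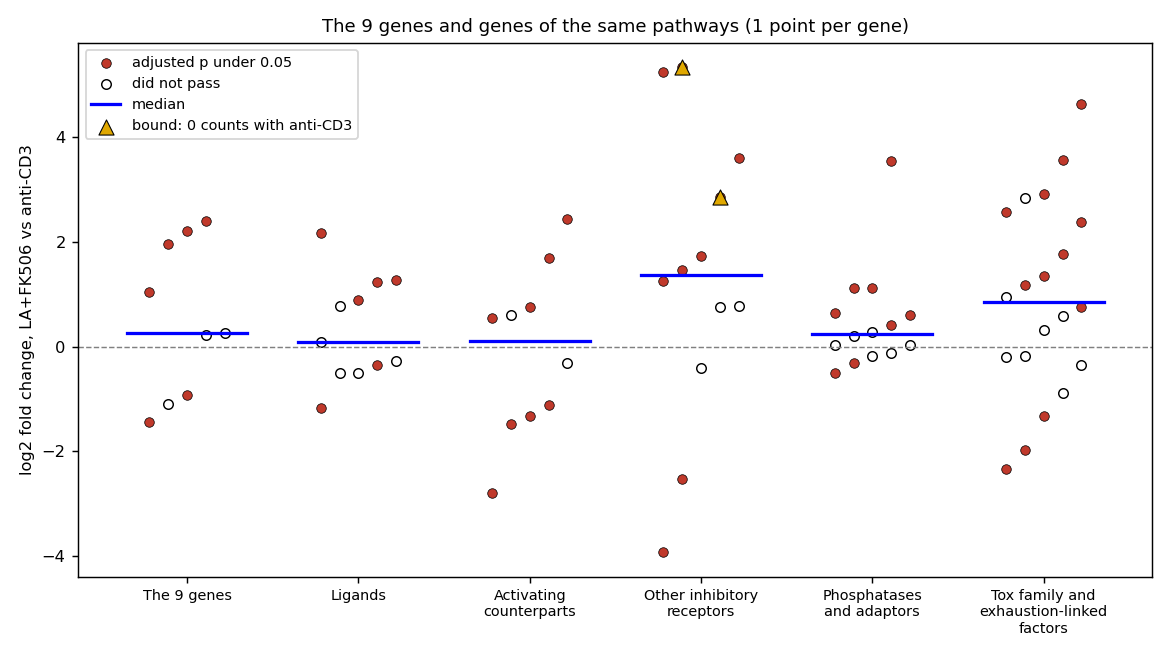
Log2 fold changes between the combination and anti-CD3 alone (y axis) for the 9 genes and for 5 lists of genes of the same pathways (x axis), with 1 point per gene, filled where the adjusted p is under 0.05, and the median as a line. Triangles are lower bounds for genes with 0 counts in all anti-CD3 libraries, and the list of other inhibitory receptors has the highest median, 1.36, against 0.25 for the 9 genes.

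For the wider pathway, 5 lists were counted with the combination set against anti-CD3 alone, where 21.5% of all tested genes were higher and 21.8% lower. Of 11 ligands tested (*Fgl1*, a ligand of LAG3, was too low to be tested), 4 were higher, 2 lower and 5 did not pass, with a median log2 fold change of 0.08. Those that did not pass include *Lgals3* (galectin-3, a ligand of LAG3) at 0.77, and *Nectin2* and *Nectin3*, relatives of *Pvr*, at -0.49 and -0.28. Of 10 activating counterparts, 4 were higher and 4 lower, from *Cd86* (2.43, adjusted p = 0.000946, edgeR), a ligand of CD28 and CTLA4 on antigen-presenting cells, to *Tnfsf14*. *Cd86* also differed between the combination and FK506 (1.69, adjusted p = 0.0179, edgeR), and 4 of the 8 myeloid markers tested were higher in that comparison too. Of 12 other inhibitory receptors, 7 were higher and 2 lower, with a median of 1.36. Among them *Klrg1*, a receptor for cadherins on differentiated T and NK cells, rose from an FPKM of 0.288 to 0.344 with anti-CD3 alone to 10.4 to 19.3 (5.24, adjusted p = 0.00116, edgeR), and *Lair1*, a collagen receptor, changed by -3.92 (adjusted p = 0.00298, edgeR). The anti-CD3 library of replicate 1 was low for *Lair1*, at 1.44 against 10.3 and 9.88 in the other two, as it was for *Cd160*. *Pilra* and *Cd300a* had 0 counts in all anti-CD3 libraries, and with 3 counts per library put in their place the median was 1.36 as well. *Pilra*, *Cd300a* and *Cd72* were higher in the combination. *Lilrb4a* was lower (-2.53, adjusted p = 0.000235, edgeR), at an FPKM of 19.3 to 29.7 against 84.6 to 131 with anti-CD3 alone. *Pilra*, *Cd300a* and *Lilrb4a* are known from myeloid cells and *Cd72* from B cells. The part of those cells in the count of this list was not tested.

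Of 14 phosphatases and adaptors that act below these receptors, 6 were higher and 2 lower, beside 21.5% and 21.8% of all tested genes, with a median of 0.24. *Sh2d1b1*, the adaptor EAT2 known from NK and myeloid cells, had the highest value (3.54, adjusted p = 0.00465, edgeR) at a low level, with an FPKM of at most 0.0352 with anti-CD3 alone and 0.241 to 0.345 in the combination. *Sh2d1a*, the adaptor SAP, had the highest of those with a mean FPKM of at least 1 (1.11, adjusted p = 0.00626, edgeR), and *Ptpn6*, the phosphatase SHP1, the lowest (-0.50, adjusted p = 0.00121, edgeR). Of 20 genes of the TOX family and of factors linked to exhaustion, 9 were higher and 3 lower, beside the same shares, with a median of 0.85 beside 0.02 for all genes tested. *Ikzf2* (Helios), which is also a Treg gene, rose by 4.62 (adjusted p = 3.57e-05, edgeR), and *Tbx21* (T-bet), the factor of Th1 cells, was at -2.33 (adjusted p = 6.75e-05, edgeR). *Tox2*, the closest relative of *Tox* on this list, was singled out after its values were seen. Its FPKM was 0.570 to 0.720 (anti-CD3 alone), 0.357 to 1.33 (*L. acidophilus*), 0.995 to 2.70 (FK506) and 4.89 to 5.98 (combination) (2.90 against anti-CD3 alone, adjusted p = 0.000249, and 1.59 against FK506, adjusted p = 0.0190, edgeR). As for *Tox*, the combination libraries lay above all others.

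The single treatments gave other counts in these lists. With *L. acidophilus* alone, 0 of the 67 listed genes passed in edgeR, beside 0.229% of all tested genes, 12 had an unadjusted p under 0.05, and DESeq2 called 3 (*Pdcd1lg2*, *Nfatc1* and *Nfatc3*). The shares of all tested genes at the unadjusted p and in DESeq2 are not given here. FK506 alone, with 10.2% of all tested genes higher and 8.81% lower, gave 2 higher and 3 lower among the ligands, 1 and 5 among the activating counterparts, 3 and 3 among the other inhibitory receptors, 3 and 2 among the phosphatases and adaptors, and 8 and 3 among the TOX family and linked factors. Added to FK506, *L. acidophilus*, with 8.18% of all tested genes higher and 10.9% lower, gave 4 higher and 0 lower among both the activating counterparts and the phosphatases and adaptors, 3 and 0 among the other inhibitory receptors, 1 and 1 among the ligands and 3 and 4 among the TOX family and linked factors.

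**Figure D5:**
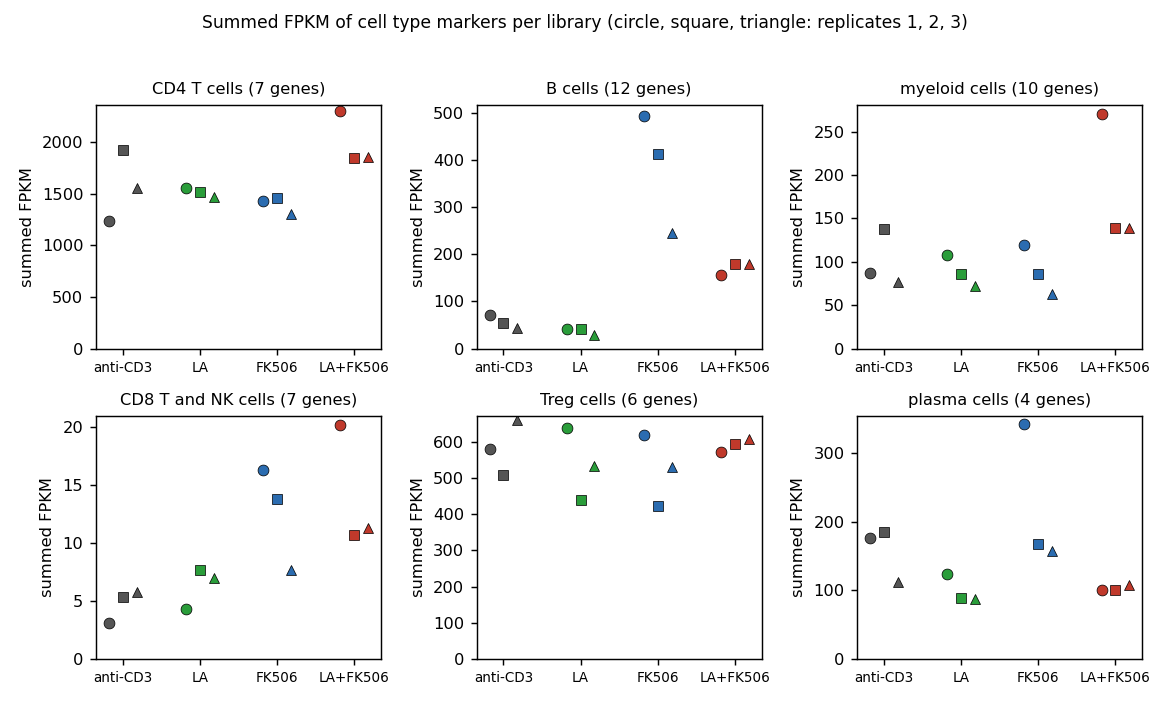
Summed FPKM (y axis, linear and from 0) of the markers of 6 cell types in each of the 12 libraries, by group (x axis). The B-cell sums are highest with FK506 (245 to 493), and the myeloid sums, most of them *Cst3*, reach 270 in 1 combination library.

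The genes whose levels ran most like those of each gene across the 12 libraries were found by Pearson's r of log2(FPKM + 1) among genes with a mean FPKM of at least 1. This is a description without a test, since the libraries share 4 treatments and their depths. *Cd96* ran with the interferon-inducible genes *Ifi204* (r = 0.997) and *Samd9l* (r = 0.995), *Tox* with *Hp1bp3* (0.996) and *Fam53b* (0.990), and *Havcr2* with *Pcyt1a* (0.987) and *Ypel2* (0.981). *Cd200* ran with *Slc9b2* (0.977) and *Bdh2* (0.975), *Btla* with *Ptpn4* (0.971) and *Ehd4* (0.947), and *Tigit* with *Rab11fip1* (0.953) and the T-cell receptor segment *Trav9d-3* (0.949). *Cd160* ran with *9130019O22Rik* (0.952) and *Cd81* (0.941). The values were lower for *Pdcd1*, with *Tbc1d22a* (0.933) and *Abhd12* (0.927), and for *Lag3*, with *Ints12* (0.905) and *Poldip3* (0.904). Among the 9 genes themselves, the highest r were those of *Havcr2* with *Tigit* (0.925) and *Tox* (0.912) and of *Btla* with *Cd200* (0.898), and the lowest was that of *Cd96* with *Cd200* (-0.775).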

How the data were processed

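RNA from 12 libraries of anti-CD3-stimulated CD4+ T cells was grouped by the sample labels. The submitters' processing notes name bcl2fastq 2.20.0, Trimmomatic, HISAT2 2.1.0, StringTie 2.1.3b and the build GRCm38 (mm10). For each of 45777 genes, the authors deposited whole-number counts, FPKM and TPM of every library. The methods also name quantile normalization, which the deposited FPKM values, with totals that differ between libraries, do not show. Levels are given as deposited FPKM, which are scaled to length and depth but not to TMM factors, so their ratios differ from the fitted folds.

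edgeR 4.0.16 was run on the counts of 23585 genes with any count in 3 or more libraries, in R 4.3.3 (quasi-likelihood test, TMM factors, 1 mean per group over all 12 libraries, Benjamini-Hochberg adjustment over all genes tested). Standard errors were derived from the F statistic. With 3 libraries against 3, the smallest p that an exact permutation test can give is 0.1. No pair of libraries in a group agreed within sampling noise (chi-square divided by its degrees of freedom from 4.52 to 188). Replicates 2 and 3 were far closer to each other than to replicate 1 in the combination (4.52 against 72.1 and 79.2). The same held for *L. acidophilus* (8.95 against 55.1 and 54.4). With anti-CD3 alone replicates 2 and 3 gave 165 against 188 and 91.8, and with FK506 43.7 against 43.9 and 57.4. The fits were tested on simulated data with 100 genes changed 2-fold and 100 changed 4-fold in 1 group. Of the 2-fold changes, 54 to 64 were recovered in comparisons of 2 groups and 24 in the departure from the sum. Of the 4-fold changes, 89 to 95 and 80 were recovered.

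Alternatives were DESeq2 1.42.0, DESeq2 size factors, no TMM factors, other filters (filterByExpr or none), limma 3.58.1 on log2(FPKM + 1) or log2(FPKM + 0.1), other thresholds, the 6 libraries compared, replicates 2 and 3 alone, the replicate number as a block, and each library left out. limma on log2(TPM + 1) was chosen after seeing the data. Same-numbered libraries deviated together, with every correlation above 0.1, for *L. acidophilus* against anti-CD3 alone (0.227 to 0.471) and the combination against *L. acidophilus* (0.142 to 0.240), where the block is a hint from the data, since the labels state no shared animal or batch.

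The 9 genes and all lists were chosen with earlier results of these data known. Genes named from the pathway lists are the highest and lowest called changes with a mean FPKM of at least 1 and the direct partners of a described gene, and for each of the 9 genes the 2 most alike by Pearson's r. *Sh2d1b1*, *Pilra*, *Cd300a*, *Lilrb4a*, *Cd72* and *Tox2* fall outside this rule and were named after their values were seen. Positions and start windows come from RefSeq (GRCm38.p6). Python 3.11.15 with matplotlib 3.10.9 made the figures.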

Additional observations from a re-analysis of the deposited data

How the results depend on the processing

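The 63 fold changes (each gene in each comparison) gave 684 pairs with an alternative setting, of which 645 kept the direction and the side of the threshold, 19 passed and 9 failed only under the alternative, and 11 turned direction; of the 756 pairs with a left-out library these numbers were 704, 14, 22 and 16. DESeq2 gave 1 gene for *L. acidophilus* against anti-CD3 alone and 2 for the departure from the sum. At an adjusted p under 0.01 there were 2 genes for FK506 against anti-CD3 alone, 2 for the combination against FK506 and 1 for FK506 against *L. acidophilus*. limma on log2(FPKM + 1) gave 2 for FK506 against anti-CD3 alone, and a 2-fold minimum gave 3 for the combination against FK506. Within replicates 2 and 3 alone there were 4 for FK506 against *L. acidophilus* and 1 for the departure (*Tigit*, 0.91, adjusted p = 0.0376, edgeR). The shares of all tested genes that passed under these settings are not given here.

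With 1 library left out in turn, the number of genes that passed ranged from 6 to 8 for the combination against anti-CD3 alone (8 without the anti-CD3 library of replicate 2), from 0 to 0 for *L. acidophilus*, from 2 to 5 for FK506 against anti-CD3 alone, from 2 to 5 for the combination against FK506 (2 without the FK506 library of replicate 3), from 5 to 7 for the combination against *L. acidophilus*, from 1 to 3 for FK506 against *L. acidophilus* and from 0 to 1 for the departure. For these fits, too, the shares of all tested genes are not given here.

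The direction turned for differences that did not pass, and the cause was not tested. *Cd96* with *L. acidophilus* against anti-CD3 alone, at -0.0020, was 0.069 without TMM factors, 0.0024 with filterByExpr, 0.0071 with no filter, 0.078 and 0.093 with limma on log2(FPKM + 1) and log2(FPKM + 0.1), 0.13 with log2(TPM + 1) and 0.0039 with the 6 libraries compared. Also with *L. acidophilus*, *Cd160* was -0.0082 within replicates 2 and 3 and *Cd200* was 0.011 on log2(TPM + 1). *Tigit* with FK506 was -0.083 within replicates 2 and 3, and *Lag3* in the combination against *L. acidophilus* was 0.055 on log2(TPM + 1). With 1 library left out, *L. acidophilus* against anti-CD3 alone ranged from -0.52 to 0.26 for *Pdcd1*, from -0.37 to 0.44 for *Cd160*, from -0.11 to 0.14 for *Cd96* and from -0.27 to 0.061 for *Cd200*. The combination gave -0.044 to 0.74 for *Pdcd1*, FK506 gave -0.064 to 0.30 for *Tigit*, and the departure was -0.25 to 0.57 for *Cd160* and -0.12 to 0.15 for *Btla*. log2(TPM + 1) moved the median of genes with a mean FPKM of at least 1 by 0.36 in the combination against anti-CD3 alone.

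With the replicate number as a block, the call of *Btla* in FK506 against *L. acidophilus* changed (-0.48, adjusted p = 0.0112, against 0.112 without the block, edgeR), and no other call of the 9 genes did. In the comparisons not named under the pairing check, the lowest correlation of same-numbered libraries was -0.123, and 8 of the 12 libraries correlated best with their own number.

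Each group holds 3 libraries, the doses of both agents are not given in the labels, and bulk RNA holds the marker genes of B and myeloid cells given in the report. *Cd160* and *Havcr2* rest on few reads, with at least 67 and 126 counts per library.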
